A study of Ovis aries with 15 samples.

Results

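The longest step of the series sets fetal sheep liver of gestational day 144, close to birth, against fetal sheep liver of gestational day 100. The comparison held every library titled GD144 (6) and every library titled GD100 (4), which is 10 of the 15 libraries of the series, and all 31411 genes of the count table. Each library is poly(A)-selected RNA from the liver of Ovis aries, sequenced in bulk with paired ends. The labels name no treatment, diet, breed or sex for either stage, and nothing in them says that the libraries of a stage came from different fetuses, so the p-values measure the spread between these libraries. The sample codes begin with other letters at each stage, so a difference of cohort or collection cannot be told apart from a difference of age. The remaining 5 libraries, of day 124, entered the fit of all genes and are given only as levels.

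The fetal liver is a blood-forming organ and a gland at the same time. Red cell precursors, megakaryocytes and granulocytes mature between its hepatocytes until the bone marrow takes over, while the hepatocytes pass from glucose use on the maternal supply to the enzyme set that releases glucose, makes ketone bodies and urea, and exports bile after birth. Many of these steps exist as isoenzymes or as related transporters, of which a fetal, blood cell or general form and a hepatocyte form are known, so that a change of organ function can show as a replacement of one family member by another.

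The 10 libraries held between 24678965 and 38247295 counts, and 3 counts correspond to between 0.0796 and 0.117 CPM (counts scaled to library size after TMM normalisation). The marker lists showed what the tissue held, beside 27.1% of all tested genes that rose and 27.9% that fell. The 12 erythroid markers all fell, from a sum of 4033 to 10320 CPM in the GD100 libraries to 34.79 to 784.2 CPM in the GD144 libraries, and all 8 proliferation markers fell, from 1041 to 2487 CPM to 30.5 to 233.6 CPM. Of the hepatocyte markers 7 of 10 rose, with a sum of 58890 to 178800 CPM at GD100 and 174200 to 216000 CPM at GD144. GD144 replicate 3 stood apart with the highest erythroid and proliferation sums of its stage, and GD100 replicates 2 and 3 stood apart with the highest of theirs. In bulk RNA, fewer cells of a type and less RNA per cell cannot be told apart. GD100 replicates 2 to 4 also had more genes with fractional counts (16.7% to 16.9%) than every other library (8.32% to 10%). The part of these differences in the results was not tested.

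Most of the tested genes differed between the stages. Of 16977 genes tested with edgeR's quasi-likelihood test at an adjusted p of 0.05, 9342 were called (55.0%), of which 4603 were higher at GD144 (27.1%) and 4739 lower (27.9%). The falls were larger than the rises: 515 genes fell by more than 4 on the log2 scale and 125 rose by more than 4. The 4 GD100 and 6 GD144 values did not overlap for 3254 genes that were higher at GD144 (19.2%) and for 3532 that were lower (20.8%). The median log2 change of all tested genes was 0.03. Of the 161 genes given in the text 55 overlap another gene in the annotation, among them AFP, ESR1, SLC2A1, SLC10A1, HK1, GLS2, PYGL, HSD11B1 and SLC37A4, and the strand setting of the counting is not given in the sources used here, so their reads and those of the neighbour cannot be told apart. With GD100 represented by replicate 1 alone, 7182 genes were called.

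A gene was said to appear when it lay under 1 CPM in all 4 GD100 libraries and over 1 CPM in all 6 GD144 libraries, and to vanish in the opposite case. These classes are cut from the values compared, so their edgeR calls are a description and no support. By this rule 99 genes appeared and 246 vanished, beside 12076 genes that were over 1 CPM in every library of both stages and 15195 that were under it in every library. Most of the genes that crossed were low on both sides: the median of the mean level in the higher stage was 2.42 CPM for the genes that appeared and 3.19 CPM for those that vanished, and only 10 and 21 genes reached a mean of 10 CPM. No gene of either class was at 0 counts in every library of its lower stage, and 3 of the 99 and 13 of the 246 were at 3 counts or fewer in each of those libraries. Among the genes that vanished 28.5% are lncRNA in the annotation, among those that appeared 19.2%, and among all genes tested 10.2%. The lncRNA share of other genes at such low levels was not measured, so these shares are not matched for level. Another gene overlapped 32 of the 99 and 119 of the 246, so their reads could belong to the neighbour.

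The cut was narrow for many genes. A library lay within 1.1-fold of the threshold for 28 of the genes that appeared and 57 of those that vanished, and 140 and 415 further genes missed the rule by exactly 1 of the 10 libraries. AMY2B (0.978 CPM in GD100 replicates 2 and 4) and REC8 (0.994 CPM in a GD144 library) were just inside. SLC11A1 (1.29 CPM in GD100 replicate 4 and 0.624 CPM in GD144 replicate 2) and MYB (1.83 CPM in GD144 replicate 3) were just outside. Requiring over 3 CPM in place of 1 in the higher stage left 17 genes that appeared and 61 that vanished. The rule asks every library, so leaving libraries out can only add genes, and all 99 and 246 were kept in each such case. Leaving out GD100 replicate 1 raised the number that vanished to 397, leaving out GD144 replicate 3 raised it to 361, and taking replicate 1 alone for GD100 gave 296 that appeared and 810 that vanished. The day 124 libraries did not enter the rule, but its genes were picked for lying on opposite sides of 1 CPM at GD100 and GD144. How often the day 124 mean lies between the others over all genes was not measured, so the day 124 levels are a description. The mean at day 124 lay between the means of both stages for 95 of 99 and 232 of 246 genes, and all 5 day 124 libraries were already past 1 CPM for 21 of the genes that appeared, while all 5 were already under it for 33 of those that vanished.

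**Figure D1:**
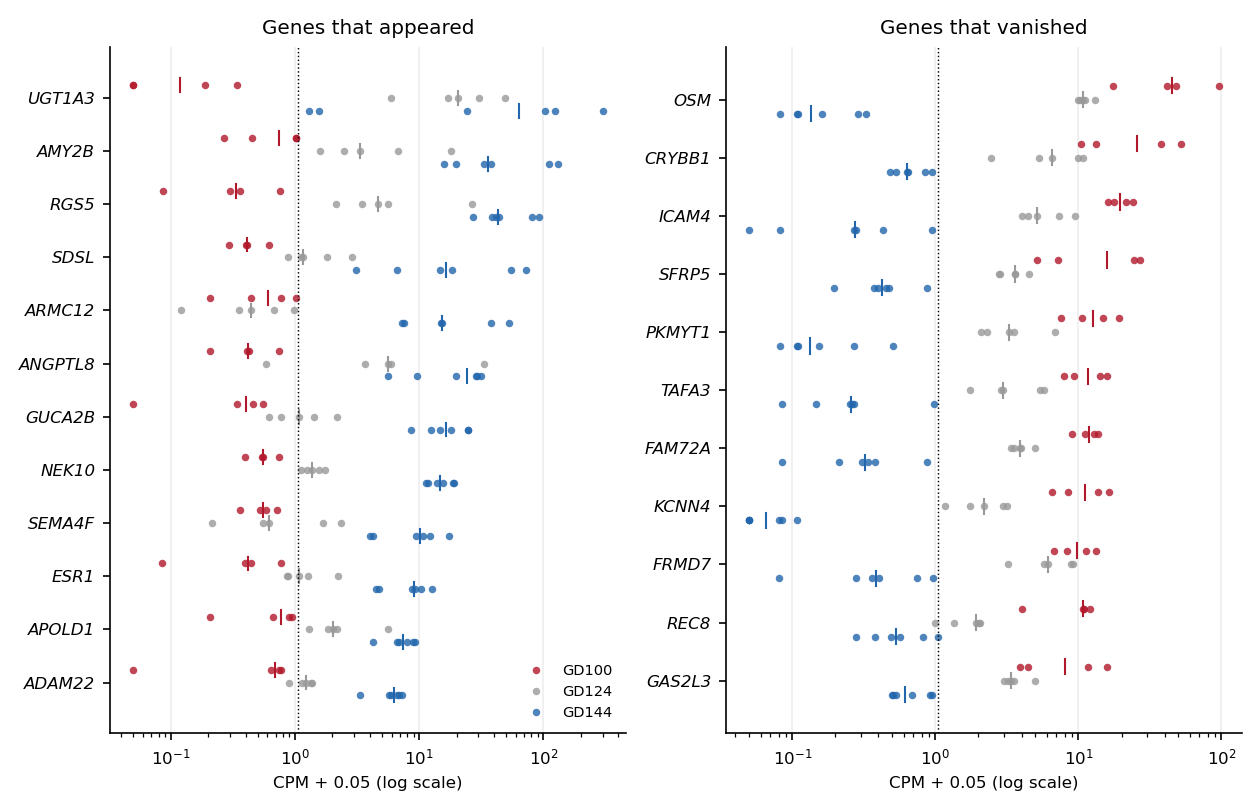
Levels of the 12 genes with the highest mean that appeared (left) and 11 of the 12 that vanished (right), as CPM plus 0.05 on a log axis. Each point is a library and each short bar a median, for GD100 (red), day 124 (grey) and GD144 (blue); the dotted line is 1 CPM, which no red or blue point of a gene crosses.

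Among the genes that appeared were a steroid receptor, hormones and enzymes of hepatocytes, and a marker of vessel walls. RGS5, a regulator of G protein signalling known from pericytes, was at 0.253, 0.314, 0.0364 and 0.704 CPM in GD100 replicates 1 to 4 and at 27.3, 42.9 and 92.4 CPM (lowest, median and highest) at GD144. No library of one stage reached the other, and the log2 change was 7.38. RGS5 is one of the 10 markers listed for stellate cells and fibroblasts. Of these 6 rose (60%) and 1 fell (10%), beside 27.1% and 27.9% of all genes, with sums of 682.9 to 1082 CPM at GD100 and 976.8 to 1725 CPM at GD144.

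ESR1, the oestrogen receptor alpha, was at 0.347, 0.0349, 0.728 and 0.391 CPM at GD100 and at 4.43, 8.98 and 12.6 CPM at GD144 (log2 change 4.46). GUCA2B, which encodes the hormone uroguanylin, was at 0.41, 0, 0.291 and 0.508 CPM and then at 8.59, 16.4 and 24.6 CPM (log2 change 5.82). For both genes the day 124 libraries lay above the highest GD100 value and under every GD144 value. ANGPTL8, a secreted regulator of lipoprotein lipase, was between 0.156 and 0.698 CPM at GD100 and between 5.55 and 31.4 CPM at GD144. It was already between 0.537 and 33.3 CPM at day 124, a range wider than that of GD144.

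SDSL, an enzyme that breaks down serine and threonine, was at 0.568, 0.244, 0.364 and 0.352 CPM at GD100. At GD144 it was at 3.05, 16.5 and 72.7 CPM, so the GD144 libraries spread widely while all stayed over every GD100 library. DAO, D-amino acid oxidase, also appeared, from at most 0.255 CPM to between 1.2 and 11.7 CPM. SDSL and DAO were the 2 genes that appeared out of the list of urea cycle and amino acid breakdown enzymes. UGT1A3, a glucuronosyltransferase, had the highest mean of the genes that appeared (92.1 CPM), from a total of 12 counts over the 4 GD100 libraries. Its GD144 values ran from 1.25 to 299 CPM. It belongs to a family of near-identical transcripts that share exons, and AMY2B to a cluster of amylase copies, so both are uncertain as single genes. AMY2B, at 15.6, 35.6 and 130 CPM at GD144, is in the list of pancreatic markers. Of that list's other tested members CEL fell, a call lost without GD100 replicate 1 (-1.97, adjusted p = 0.124, edgeR), CPA1, CPB1 and CELA3B did not pass the test, and PNLIP was at 0 in every library of both stages.

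The other 5 named genes that appeared were at 22.5 CPM or less on average at GD144. They are NEK10, a kinase, at 15 CPM, ARMC12 at 22.5 CPM, SEMA4F, a semaphorin, at 9.61 CPM, APOLD1, known from endothelium, at 7.23 CPM, and ADAM22 at 5.92 CPM. NEK10 was at 0.347 to 0.691 CPM at GD100 and 11.3 to 18.9 CPM at GD144. Of all transporter symbols 2 appeared, among them SLC16A4, a member of the monocarboxylate transporter family, which went from at most 0.379 CPM to 3.2, 4.84 and 9.46 CPM.

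The genes that vanished included a cytokine of the blood-forming liver, red cell membrane proteins and genes of dividing cells. OSM encodes oncostatin M, a cytokine of the interleukin 6 family known to come from blood cells and to act on fetal hepatocytes. It was at 41.7, 95.3, 48.3 and 17.4 CPM at GD100 and at 0.0321, 0.0851 and 0.277 CPM at GD144. The log2 change was -8.57, and all day 124 libraries lay between, at 9.93 to 13 CPM. KCNN4, the calcium-activated potassium channel of red cells, went from 8.4, 13.7, 16.4 and 6.45 CPM to a total of 4 counts over the 6 GD144 libraries. ICAM4, a red cell surface adhesion protein, went from 16 to 24.2 CPM to at most 0.902 CPM (log2 change -6.02). The erythroid marker sum given above fell in the same libraries, and its part in these falls was not tested.

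CRYBB1, a crystallin, went from 10.3 to 52.2 CPM to at most 0.902 CPM, and SFRP5, a secreted Wnt antagonist, from 5.05 to 26.7 CPM to at most 0.823 CPM. Both were lowest of the GD100 libraries in replicate 1. Genes of cell division were among them: PKMYT1, a kinase that holds CDK1 inactive, fell from 7.51 to 19.2 CPM to at most 0.451 CPM, and GAS2L3, which acts in cytokinesis, fell from 3.83 to 15.8 CPM to at most 0.893 CPM. FAM72A, the meiotic cohesin subunit REC8, TAFA3 and FRMD7 were also among the 12 with the highest means, at 9.41 to 11.8 CPM at GD100.

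Of the 62 tested members of the transcription factor list 25 rose (40.3%) and 26 fell (41.9%), beside 27.1% and 27.9% of all genes. Only 3 of its called members had a mean on each side of 1 CPM, and all 3 fell. FOXM1, a factor of mitotic genes, was at 26.9, 38.8, 38.9 and 19.3 CPM at GD100 and at 0.554, 0.666 and 2.44 CPM at GD144. MYB, a factor of blood progenitors, was at 7.23, 19.2, 15 and 9.23 CPM and then at 0.0641, 0.114 and 1.83 CPM. For both, the highest GD144 value was that of replicate 3, the library with the highest erythroid sum. LIN28B, which blocks maturation of let-7 microRNAs and is a known fetal gene, went from 2.27, 6, 4.48 and 2.58 CPM to 0.0473 CPM (median), and it alone of the 3 met the rule for genes that vanished. Among blood markers GP6 of the megakaryocyte list and PRTN3 of the granulocyte list vanished, and all 7 tested megakaryocyte markers fell, beside 27.9% of all tested genes.

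Isoenzymes were examined in 54 families with at least 2 tested members. Of the 200 members tested over all isoenzyme families 76 rose (38%), beside 27.1% of all genes, and 49 fell (24.5%), beside 27.9% of all genes, with a median log2 change of 0.18 against 0.03. With GD100 represented by replicate 1 alone, 50 members rose. Replacement was then measured directly in 53 pairs, each as the log2 ratio of the hepatocyte or late form to the other form within a library, in which gene length cancels. The ratio differed between the stages in 40 pairs (exact two-sided permutation test over the 210 assignments of the 10 libraries, adjusted over the 53 pairs). It moved toward the late form in 36 and away from it in 4. The pairs and their order were chosen with earlier results of these data known, and 55.0% of all tested genes were called. Ratios of other genes were not measured, so these counts have no baseline and are a description. The smallest p this design allows is 0.00476, and 36 pairs reached it, with an adjusted p of 0.00701. In 18 pairs the late form rose and the other fell in the fit of all genes, and in 3 pairs the opposite held.

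**Figure D2:**
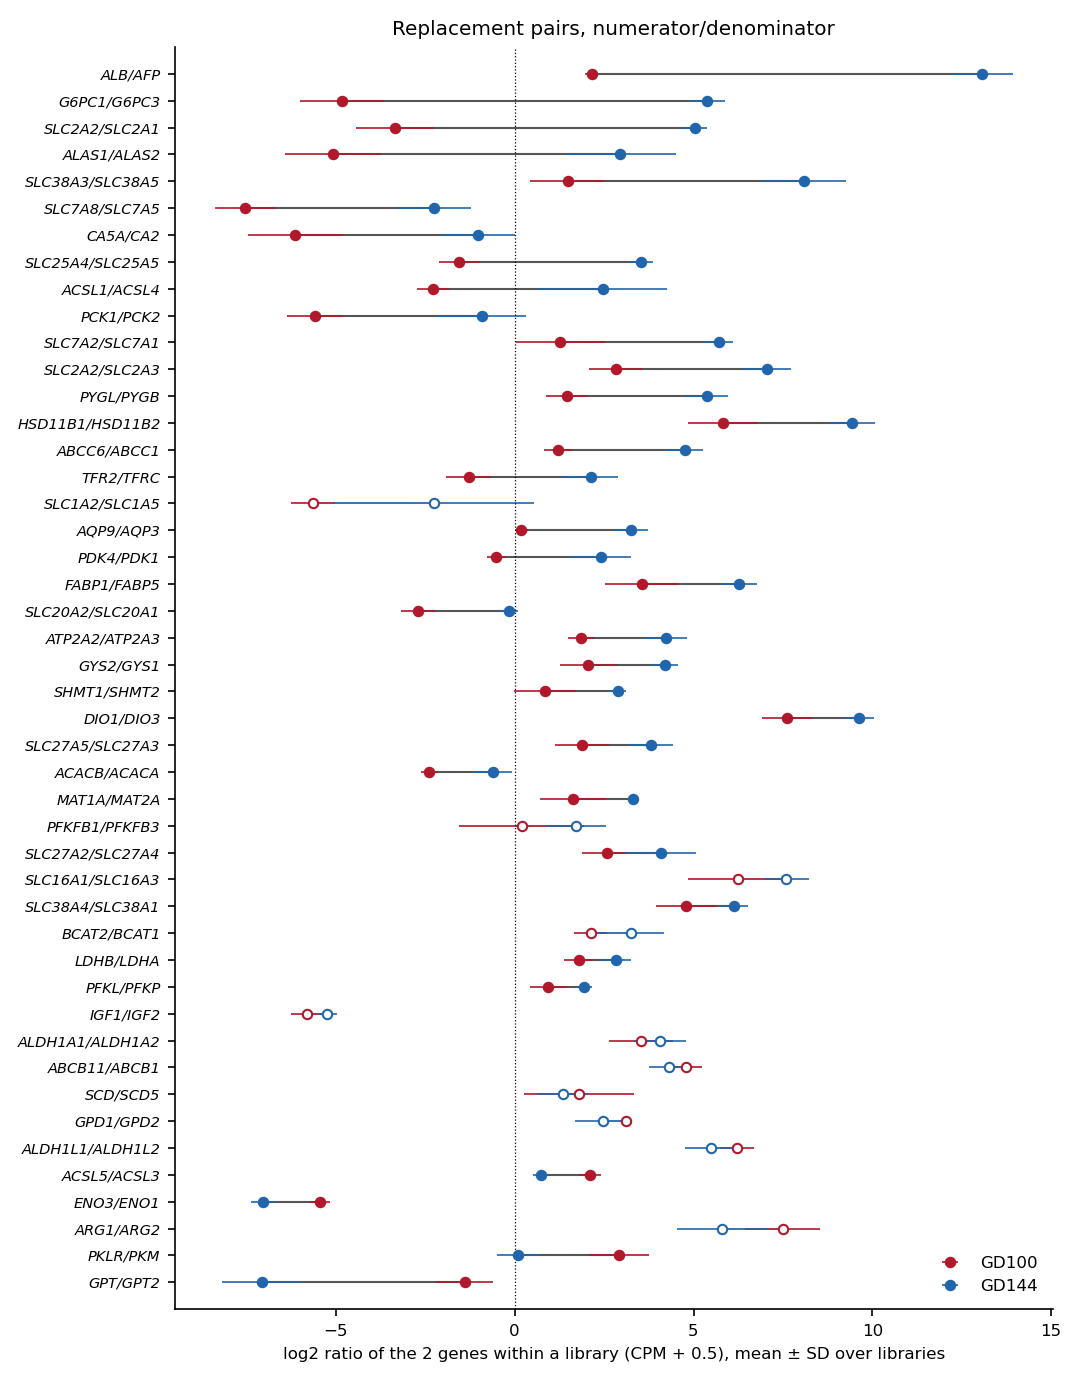
Log2 ratio of 2 related genes within a library (CPM plus 0.5), as mean ± SD over 4 GD100 libraries (red) and 6 GD144 libraries (blue), for 46 of the 53 pairs in order of the change. Filled points mark the 35 of these whose ratio differed; lines to the right of red points are shifts toward the gene named first, and the 4 called shifts to the left are near the bottom.

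Glucose release showed the largest exchange between enzymes. G6PC1, the catalytic subunit of glucose-6-phosphatase in liver and kidney, was at 2.59, 0.873, 5.06 and 4.89 CPM at GD100 and at 402, 590 and 780 CPM at GD144. The widely expressed form G6PC3 went the other way, from 117, 103, 104 and 63.8 CPM to 8.85, 12.7 and 17.7 CPM. Neither gene's libraries overlapped between stages. G6PC1 rose by 7.43 ± 0.59 (log2; adjusted p = 1.46e-07, edgeR), G6PC3 fell by 2.88 ± 0.20 (adjusted p = 3.59e-08, edgeR), and their ratio changed by 10.21 on the log2 scale.

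Other genes of glucose release moved the same way as G6PC1. SLC37A4, which carries glucose-6-phosphate to that enzyme, was at 33.1, 15.1, 21.6 and 18.1 CPM and then at 222, 321 and 438 CPM. PCK1, the cytosolic phosphoenolpyruvate carboxykinase, was at 1.04, 0.943, 4.22 and 2.23 CPM and then at 38.8, 147 and 301 CPM. The mitochondrial form PCK2 rose as well, by 1.20 ± 0.23 (log2; adjusted p = 0.00041, edgeR), but the ratio of PCK1 to PCK2 still moved by 4.65. FBP1, which removes a phosphate from fructose 1,6-bisphosphate, rose by 2.41 ± 0.29 (adjusted p = 3.3e-06, edgeR). At day 124 G6PC1 stood between 58.3 and 200 CPM and PCK1 between 17.4 and 51.5 CPM, between both stages.

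In glycolysis the hexokinase genes HK1 and HKDC1 fell. HK1, the hexokinase of red cells and most tissues, fell from 73.8, 178, 132 and 75.3 CPM to 9.68, 11.1 and 21.8 CPM. HKDC1, another hexokinase family member, fell by 2.47 ± 0.42 (log2; adjusted p = 0.000181, edgeR). The pair LDHB to LDHA moved by 1.03, with LDHB higher at GD144.

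PKLR went against the direction of its pair. This gene encodes the pyruvate kinase of liver and, from another promoter, that of red cells. It was at 239, 275, 267 and 225 CPM at GD100 and at 16.3, 22.7 and 35.6 CPM at GD144, a fall of 3.32 ± 0.20 (log2; adjusted p = 1.36e-08, edgeR). The muscle form PKM fell less, by 0.69 ± 0.28 (adjusted p = 0.0475, edgeR), a call lost without GD100 replicate 1 (-0.14, adjusted p = 0.563) and in 14 of the alternatives run in all. The ratio moved by -2.83, from 2.92 ± 0.83 to 0.0942 ± 0.59 (mean ± SD). Counts per gene do not tell the promoters apart, and the erythroid marker sum fell in the same libraries. PDK4, which switches off pyruvate dehydrogenase, rose from 5.87 to 10.9 CPM to 120, 170 and 446 CPM, while PDK1 rose by 1.42 ± 0.29 and PDK3 fell by 1.16 ± 0.23 (adjusted p = 0.000565 and 0.000526, edgeR).

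PYGL and GYS2, the glycogen enzymes of liver, rose relative to the brain phosphorylase and the muscle synthase. PYGL, the liver phosphorylase, was at 22.5, 24.9, 23.4 and 51.2 CPM and then at 203, 224 and 339 CPM, and PYGB, the brain form, fell from 7.79 to 11.8 CPM to 3.28 to 6.99 CPM. Their ratio moved by 3.90. GYS2, the liver glycogen synthase, rose by 2.76 ± 0.32 and the muscle form GYS1 by 0.76 ± 0.12 (adjusted p = 2.6e-06 and 4.58e-05, edgeR), so the ratio moved by 2.13 although both rose. PPP1R3C, a subunit that targets protein phosphatase 1 to glycogen, rose from 22.8 to 32.6 CPM to 220 to 269 CPM.

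In fat metabolism several enzymes changed. HMGCS1, an enzyme of cholesterol synthesis, fell by 0.66 ± 0.25 (log2; adjusted p = 0.0365, edgeR) with overlapping libraries, and that call was lost without GD100 replicate 4 (-0.41, adjusted p = 0.183, edgeR). CPT1A, the liver gate for fatty acids into mitochondria, rose by 1.85 ± 0.24 and the brain form CPT1C fell by 1.24 ± 0.28 (adjusted p = 8.88e-06 and 0.00133, edgeR).

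ACSL1, an acyl-CoA synthetase, rose from 46.7 to 98.8 CPM to 205, 571 and 1092 CPM, while ACSL6 fell from 48.3 to 114 CPM to 2.08 to 17.6 CPM. ACSL4 fell by 1.46 ± 0.43 (adjusted p = 0.00958, edgeR) after a day 124 level of 556 to 709 CPM, over both other stages. ACACB, the mitochondrial acetyl-CoA carboxylase, rose by 0.77 ± 0.25 and ACACA, the cytosolic one, fell by 1.11 ± 0.15 (adjusted p = 0.015 and 9.79e-06, edgeR). Without GD100 replicate 4 the adjusted p of ACACB was 0.0501. FABP5, a fatty acid binding protein of epithelia and macrophages, fell from 13 to 30.2 CPM to 1.43 to 6.45 CPM, and the liver form FABP1 did not pass the test (0.19 ± 0.30, adjusted p = 0.618, edgeR). SCD and SCD5 showed no called change of their ratio (-0.47, adjusted p = 0.534, exact permutation), with SCD at 71.4 CPM in GD100 replicate 2 and at 6.25 to 17.2 CPM in the others.

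Most amino acid enzymes of the list, which was chosen with earlier results of these data known, rose. Of its 60 tested enzymes of the urea cycle and amino acid breakdown 46 rose (76.7%) and 4 fell (6.67%), GPT among the 4, beside 27.1% and 27.9% of all genes. GLS2, the liver glutaminase, was at 57, 29.5, 38.7 and 71.2 CPM and then at 131, 273 and 355 CPM (log2 change 2.47 ± 0.29, adjusted p = 2.69e-06, edgeR). MAT1A, the liver methionine adenosyltransferase, rose by 1.66 ± 0.21 (adjusted p = 7.82e-06, edgeR), and MAT2A, the form of other tissues, did not pass the test (-0.04 ± 0.21, adjusted p = 0.897, edgeR). The alanine aminotransferases went against the listed order: the mitochondrial GPT2 rose from 25.9, 16.1, 18.3 and 22.7 CPM to 68.7, 232 and 421 CPM, and the cytosolic GPT fell from 5.11 to 12.2 CPM to 0.6, 1.05 and 2.79 CPM. Their libraries did not overlap and the ratio of GPT to GPT2 moved by -5.66.

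ARG1, the arginase of the urea cycle, did not pass the test (0.69 ± 0.31, adjusted p = 0.0674, edgeR), and ARG2, the mitochondrial arginase, rose from 1.45 to 3.97 CPM to 6.13, 12 and 81 CPM. Their ratio did not differ by the test (-1.69, adjusted p = 0.0785, exact permutation). SHMT1 and SHMT2, the serine hydroxymethyltransferases of cytosol and mitochondria, both rose, by 2.68 ± 0.34 and 0.77 ± 0.20 (adjusted p = 6.85e-06 and 0.00369, edgeR), and the ratio moved by 2.04.

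Among the genes of haem synthesis and the carbonic anhydrases, ALAS2 and CA2 of red cells fell and ALAS1 and CA5A rose. ALAS2, which starts haem synthesis in red cells, was at 455, 1954, 1420 and 647 CPM at GD100 and at 1.8, 10.6 and 124 CPM at GD144, and ALAS1, the form of other tissues, rose from 20.1 to 37.9 CPM to 63.9, 117 and 138 CPM. CA2, abundant in red cells, was at 303, 855, 556 and 236 CPM and then at 16.1, 25.8 and 128 CPM, and CA5A, the mitochondrial form of liver, rose from 3.6 to 9.42 CPM to 10.3 to 22.1 CPM. The log2 ratio of CA5A to CA2 was still between -3.03 and -0.25 at GD144, so CA2 had the higher count, not scaled to gene length, in every library of both stages. The highest GD144 values of ALAS2 and CA2 were those of replicate 3. TFRC, the transferrin receptor of dividing and red cells, fell by 3.57 ± 0.32 (log2; adjusted p = 2.09e-07, edgeR), and TFR2, the hepatocyte iron sensor, did not pass the test (-0.19 ± 0.12, adjusted p = 0.19, edgeR), so the ratio moved by 3.42 through TFRC. Of the glutathione peroxidases GPX1 fell from 948, 1870, 1585 and 614 CPM to 63.9, 83.3 and 231 CPM, and the secreted GPX3 rose from 99.8 to 394 CPM to 405, 1934 and 2174 CPM. ALAS2 is one of the erythroid markers, and the sum of those markers fell with CA2, TFRC and GPX1.

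Among enzymes that act on hormones HSD11B1 and DIO1 rose. HSD11B1, which regenerates active cortisol, was at 38.7, 13.6, 30.8 and 74.6 CPM at GD100 and at 366, 504 and 724 CPM at GD144 (3.77 ± 0.43, adjusted p = 2.63e-06, edgeR). HSD11B2, which inactivates cortisol, stayed under 1 CPM, with 11 counts over the GD100 and 53 over the GD144 libraries. DIO1, which activates thyroid hormone, rose from 64.9 to 157 CPM to 473, 610 and 880 CPM, and the inactivating DIO3 had 4 and 63 counts. The called ratio shifts of these pairs are therefore mainly those of HSD11B1 and DIO1. Of the 4 tested steroid 5-reductases 3 rose (75%, beside 27.1% of all genes) and none fell (beside 27.9%). SLC25A4, the adenine nucleotide carrier of muscle and heart, rose from 4.2, 8.73, 7.75 and 10.2 CPM to 87.6, 184 and 284 CPM, and SLC25A5, the form of dividing cells, did not pass the test (-0.59 ± 0.29, adjusted p = 0.0961, edgeR).

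Of the 53 pairs, 13 did not differ by the test. Besides those named, they included PFKFB1 to PFKFB3, GPD1 to GPD2, BCAT2 to BCAT1, ALDH1L1 to ALDH1L2, ALDH1A1 to ALDH1A2, IGF1 to IGF2, SLC16A1 to SLC16A3, SLC1A2 to SLC1A5 and ABCB11 to ABCB1. Several rest on a member under 1 CPM or on libraries that spread widely. IGF1 and IGF2, the insulin-like growth factors of postnatal and fetal life, both rose (1.52 ± 0.24 and 0.99 ± 0.24, adjusted p = 4.4e-05 and 0.0024, edgeR), and their ratio changed by 0.57 (adjusted p = 0.0541, exact permutation). Besides PKLR and GPT, the called shifts away from the listed late form were those of ENO3 to ENO1 (-1.59) and ACSL5 to ACSL3 (-1.37). Without GD100 replicates 2 and 3, all 40 called pairs kept their direction, and 37 had no overlap between stages. A test of 2 against 6 libraries cannot go under p = 0.0357 in an exact permutation.

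Transporters were examined in 21 families with at least 2 tested members. Of the 177 members tested 67 rose (37.9%) and 53 fell (29.9%), beside 27.1% and 27.9% of all genes, with a median log2 change of 0.21. Over all 331 tested symbols that begin with SLC, SLCO, ABC or AQP, 118 rose (35.6%) and 87 fell (26.3%), with a median of 0.15.

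**Figure D3:**
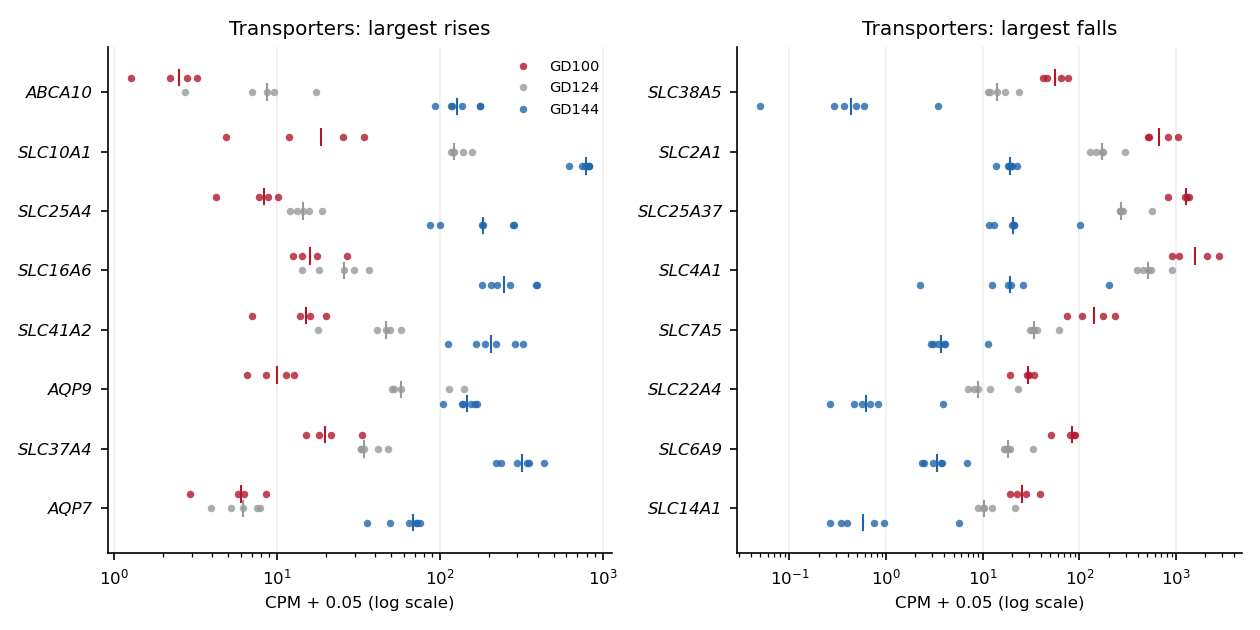
Levels of the 8 transporter genes with the largest called rises and the 8 with the largest called falls among those that reached a mean of 10 CPM with no overlap between GD100 and GD144, as CPM plus 0.05 on a log axis. Points are libraries and short bars medians of GD100 (red), day 124 (grey) and GD144 (blue).

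SLC2A1 and SLC2A2 moved in opposite directions. Of the 11 tested glucose transporters 3 rose (27.3%) and 4 fell (36.4%), near the 27.1% and 27.9% of all genes. SLC2A1, the transporter of red cells and most fetal tissue, was at 521, 1042, 823 and 510 CPM at GD100 and at 13.5, 19.2 and 22.4 CPM at GD144. SLC2A2, the bidirectional transporter of hepatocytes, was at 81.9, 39.3, 63.8 and 105 CPM and then at 488, 610 and 850 CPM. Neither gene's libraries overlapped between stages, and the ratio moved by 8.37, from -3.33 ± 1.09 to 5.03 ± 0.36 (SD). SLC2A1 fell by 5.27 ± 0.27 and SLC2A2 rose by 3.12 ± 0.26 (log2; adjusted p = 3.32e-09 and 1.18e-07, edgeR). GD144 replicate 3, the library with the highest erythroid sum of its stage, had the lowest SLC2A1 level of the 6. SLC2A3, the neuronal and placental form, fell by 1.07 ± 0.24 (adjusted p = 0.00131, edgeR).

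Amino acid carriers moved in both directions. Of 11 tested cationic and heteromeric carriers 3 rose (27.3%) and 4 fell (36.4%), near the 27.1% and 27.9% of all genes. Of 11 sodium-coupled neutral carriers 5 rose (45.5%) and 4 fell (36.4%), and of 5 acidic and neutral carriers 1 rose (20%) and 2 fell (40%). SLC7A5, the large neutral amino acid exchanger, was at 106, 231, 177 and 73.9 CPM and then at 2.84, 3.63 and 11.3 CPM, and its partner chain SLC3A2 fell by 1.08 ± 0.12 (adjusted p = 1.8e-06, edgeR). SLC7A1 fell from 20.6 to 79.7 CPM to 3.93 to 6.77 CPM, while SLC7A2, the liver carrier of arginine and lysine, rose from 65.2 to 124 CPM to 241, 307 and 440 CPM. Their ratio moved by 4.43. SLC38A5, a glutamine carrier, was at 46.6, 75.7, 64.4 and 42.2 CPM and then at 0, 0.379 and 3.37 CPM, and the hepatocyte carrier SLC38A3 rose by 0.78 ± 0.28 (adjusted p = 0.0278, edgeR) with overlapping libraries, a call lost without GD100 replicate 2 (0.58, adjusted p = 0.0802). Most of their ratio change of 6.61 came from SLC38A5. SLC43A3 fell by 3.18 ± 0.26 and SLC43A2 rose by 0.96 ± 0.17 (adjusted p = 1.22e-07 and 0.000184, edgeR). The ratio of SLC7A8 to SLC7A5 moved through SLC7A5, since SLC7A8 was at or under 1.47 CPM in each library of both stages.

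The list of bile salt and other canalicular carriers mostly rose, and the organic anion and multidrug resistance families held rises and falls. SLC10A1, the sodium-coupled bile salt importer of hepatocytes, was at 25.4, 4.85, 11.9 and 34.1 CPM at GD100 and at 620, 793 and 828 CPM at GD144, and it already stood at 118 to 157 CPM at day 124. Of the 6 tested bile salt and canalicular carriers 5 rose (83.3%, beside 27.1% of all genes) and none fell, among them ABCB11, the bile salt export pump (1.51 ± 0.20, adjusted p = 9.81e-06, edgeR) and ABCG8, of sterol export (2.75 ± 0.25, adjusted p = 2.42e-07, edgeR). Of the 6 tested organic anion transporting polypeptides 3 rose (50%) and 1 fell (16.7%), beside 27.1% and 27.9% of all genes. SLCO2B1 rose from 9.88 to 18.4 CPM to 97.8, 113 and 156 CPM. Of 7 tested multidrug resistance proteins 3 rose (42.9%) and 4 fell (57.1%), beside the same shares of all genes. ABCC1 fell from 9.54 to 17.6 CPM to 1.38 to 2.76 CPM, while ABCC2, the canalicular member, rose by 1.19 ± 0.20 and ABCC6, of liver and kidney, by 1.08 ± 0.27 (adjusted p = 9.12e-05 and 0.00308, edgeR).

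In the organic cation and anion family 6 of 11 tested members fell (54.5%, beside 27.9% of all genes) and 2 rose (18.2%, beside 27.1%). SLC22A4, a carrier of ergothioneine known from red cell precursors, fell from 19.2 to 33.6 CPM to 0.21 to 3.88 CPM. Of the other large falls, SLC4A1 is the anion exchanger of red cells, SLC25A37 the mitochondrial iron importer of red cell precursors, SLC14A1 the red cell urea transporter and SLC6A9 a glycine importer. Their GD144 medians were 19, 20.5, 0.522 and 3.33 CPM, their lowest GD100 values were 914, 821, 18.9 and 50.3 CPM, and each was highest at GD144 in the library with the highest erythroid sum, replicate 3. SLC4A1 is itself one of the erythroid markers, so for this gene the match is partly built in. The part of red cells in these falls was not tested.

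Glycerol, ketone and magnesium carriers were among the largest rises. AQP9, the hepatocyte channel for glycerol and urea, went from 6.53, 8.48, 12.7 and 11.3 CPM to 105, 147 and 170 CPM, and AQP7, a related glycerol channel, from 2.86 to 8.56 CPM to 35.6 to 75.7 CPM. AQP9 had already reached 51.1 to 140 CPM at day 124, whereas AQP7 was still at 3.89 to 7.82 CPM then. SLC16A6, a carrier of ketone bodies, rose from 12.5 to 26.9 CPM to 182, 247 and 395 CPM, and SLC41A2, of magnesium, rose from 6.95 to 19.9 CPM to 112, 205 and 325 CPM. ABCA10, an ABC transporter of little known substrate, had the largest rise of these 8 genes, from 2.15, 2.76, 3.2 and 1.21 CPM to 93.5, 128 and 176 CPM (5.87 ± 0.49, adjusted p = 2.29e-07, edgeR).

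The counts themselves moved between genes. A GD100 and a GD144 library placed between 24.3% and 49.2% of their counts in different genes (24 pairs of libraries), beside 9.65% to 31.5% within GD100 (6 pairs) and 8.57% to 15.8% within GD144 (15 pairs). Of the 25 genes with the largest mean share at each stage, 17 were shared. Among the 25 of GD100 and absent from the 25 of GD144 were 3 genes of the globin clusters (LOC101106199, LOC114110673 and LOC101108797), AFP, the imprinted genes NNAT and PEG3, and the unnamed LOC121818276 and LOC101108414. Those that replaced them were TF, FGA, FGB and FGG, CPS1, VTN, AMBP and APOH: transferrin, the 3 fibrinogen chains, the first enzyme of the urea cycle, vitronectin, alpha-1-microglobulin and beta-2-glycoprotein. The 25 genes of GD100 held 33.3% to 39.9% of the GD100 counts and 27.1% to 33.3% of the GD144 counts. The 25 of GD144 held 32.5% to 38.8% of the GD144 counts and 13% to 30.2% of the GD100 counts. Each set was chosen for its shares at its own stage.

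**Figure D4:**
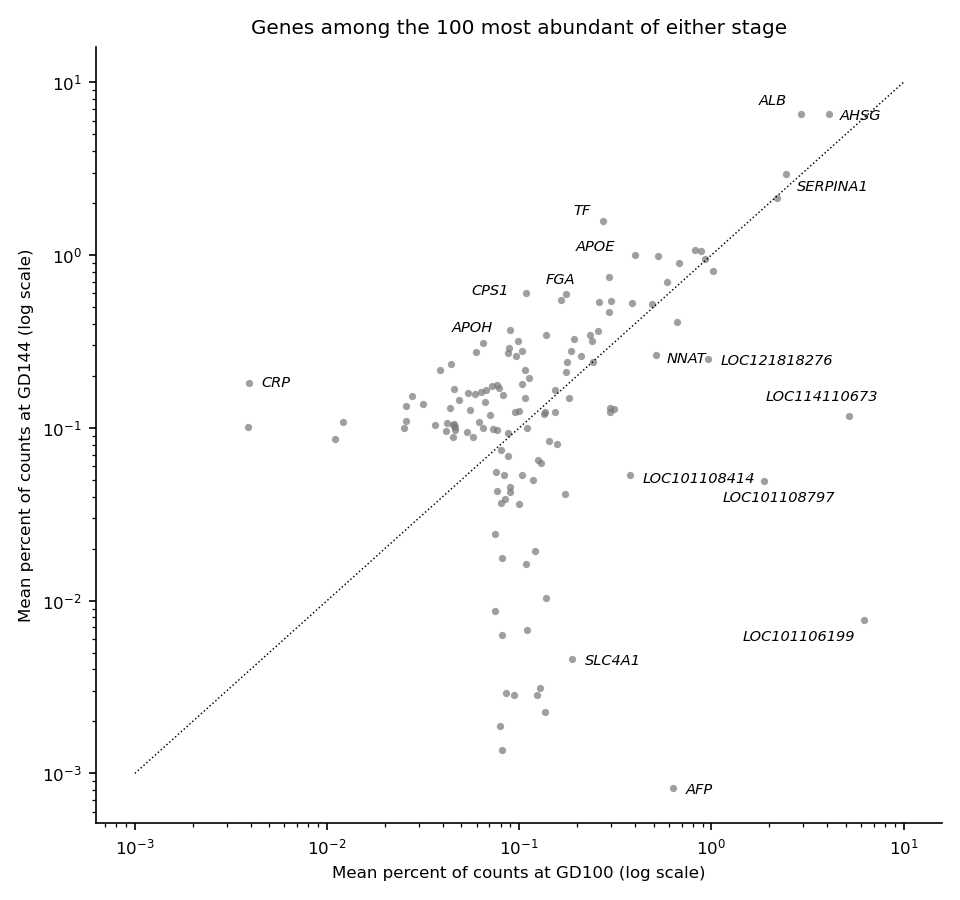
Mean percent of counts at GD100 (horizontal) and GD144 (vertical), both on log axes, for 136 genes among the 100 most abundant of either stage. The dotted diagonal marks equal shares; AFP and the globin cluster genes lie far under it, and CRP, TF and CPS1 lie over it.

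Globins made up the largest loss. LOC101106199, the last gene of the beta-globin cluster in the annotation, past HBB, held the largest mean share of all genes at GD100, with 21819, 90242, 80134 and 33078 CPM, and was at 3.18, 18.3 and 352 CPM at GD144 (log2 change -9.43 ± 1.32, adjusted p = 3.25e-05, edgeR). HBB, the adult beta-globin by symbol, did not pass the test: it was at 146, 282, 297 and 141 CPM at GD100 and at 24.1, 204 and 2764 CPM at GD144 (1.46 ± 1.01, adjusted p = 0.238, edgeR). Per count of LOC101106199 there were 0.00313 to 0.00668 counts of HBB at GD100 and 0.304 to 47 at GD144. The highest HBB level at GD144 was that of replicate 3. The pair of HBB and LOC101106199 was set side by side after their values were seen. Members of these clusters are near-identical in sequence, so reads could have been shared between them. The highest GD144 level of LOC101106199 was that of replicate 6, and those of LOC114110673 (4822 CPM) and LOC101108797 (2360 CPM) were of replicate 3. The 16 genes of both clusters by position, a set added after the data were seen, held 6.944%, 19.85%, 19.08% and 7.619% of the counts of GD100 replicates 1 to 4, and 0.009926% to 0.9958% at GD144.

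AFP, the fetal albumin-like plasma protein, fell from 6522, 3891, 3881 and 9695 CPM to 3.6, 6.04 and 18.7 CPM, from the 16th to the 9210th largest mean share. Its neighbour and successor ALB rose by 1.25 ± 0.33 (log2; adjusted p = 0.0038, edgeR), with libraries that overlapped because GD100 replicate 4 was at 51967 CPM and GD144 replicate 1 at 46324 CPM. ALB held the largest mean share of counts at GD144, 6.59% ± 0.75 of counts (SD, n = 6). The ratio of ALB to AFP moved by 10.92, the largest change of any pair. TF, transferrin, was at 749, 2523, 2239 and 4720 CPM and then at 11991, 16141 and 21067 CPM, and its rank went from 30 to 6. CPS1 was at 1316, 610, 800 and 1368 CPM and then at 3030, 6131 and 8876 CPM, and its rank went from 64 to 16. CRP, C-reactive protein, went from rank 3624 to 49 and from 21.4 to 61.8 CPM to 799, 1864 and 2758 CPM; it was singled out after its values were seen. VTN did not pass the test (1.12 ± 0.61, adjusted p = 0.131, edgeR), since it was at 276 CPM in GD144 replicate 3 and at 5903 to 7252 CPM in the other 5.

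By class, 4 of the 11 measures of composition differed (exact two-sided permutation test, adjusted over 11). The gene lists among these measures were chosen with earlier results of these data known, so their p-values are a description. The globins by symbol (4 genes), which leave out LOC101106199, LOC114110673 and LOC101108797, did not differ (0.0902% ± 0.0391 and 0.0606% ± 0.107, SD; adjusted p = 0.71, exact permutation). Secreted plasma proteins (94 genes) held 18.81%, 10.7%, 12.78% and 27.25% of counts at GD100 and 29.26%, 31.93% and 33.06% at GD144 (p = 0.00476, adjusted p = 0.0131, exact permutation). Enzymes of the urea cycle and amino acid breakdown (60 genes) rose from 0.595% to 1.099% to 1.676% to 2.886%, and cytosolic ribosomal proteins (80 genes) fell from 3.257% to 4.139% to 1.931% to 2.391%, both with the same p. Genes over 1 CPM per total counts fell from 14277 to 14540 per library to 13593 to 13959. The 13 mitochondrial protein-coding genes did not differ (7.09% ± 4.33 and 7.99% ± 2.13, SD; adjusted p = 0.71, exact permutation), and GD100 replicate 1 was the highest of all libraries at 13.41%. Of these, COX1 was between 9871 and 44229 CPM at GD100 and between 15813 and 30461 CPM at GD144.

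**Figure D5:**
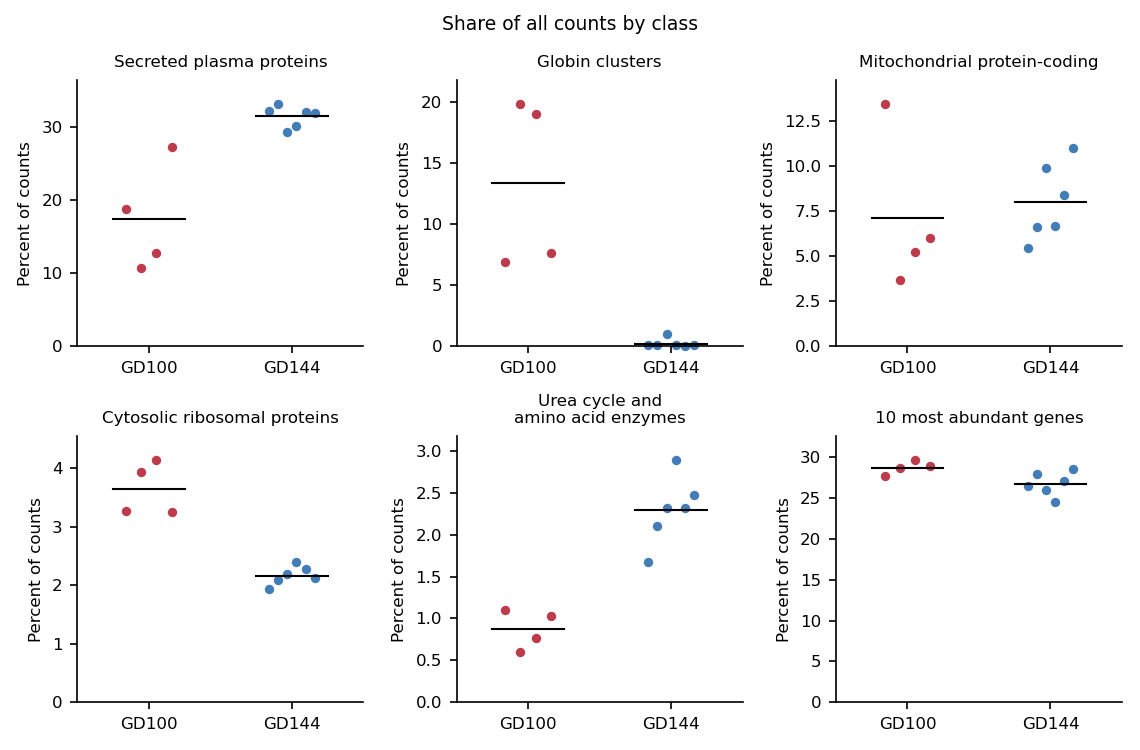
Percent of all counts in 5 classes of genes and in the 10 most abundant genes of each library, with a point per library and a line at the mean, for GD100 (4 libraries) and GD144 (6 libraries); all axes start at 0. Plasma proteins and amino acid enzymes lie higher and globin clusters and ribosomal proteins lower at GD144, with no overlap in these 4 panels.

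How concentrated the counts were depended on the globins. The 10 most abundant genes of a library held 27.61% to 29.6% at GD100 and 24.43% to 28.47% at GD144, a difference of -1.96 points that did not pass the test (adjusted p = 0.0943, exact permutation). With the 16 globin cluster genes taken out, a step added after the data were seen, the 10 most abundant genes held 20.05% of the remaining counts on average at GD100 and 26.78% at GD144. LOC101106199, LOC114110673 and LOC101108797, which were taken out, had the mean share ranks 1, 2 and 7 at GD100 and 1611, 79 and 178 at GD144. Taking them out by itself lowers the share of the top genes at GD100, so the turned direction is a description and no support. The number of genes, from the most abundant down, that reached 50% of the counts was then 331 on average at GD100 and 117.3 at GD144, a description for the same reason. With globins that number was 91, 225, 178 and 92 at GD100 and 80 to 166 at GD144. The share of plasma proteins stayed higher at GD144 without globins, at 19.72% and 31.48% of the remaining counts. The genes that gained share gained 34.3 points in all. As net differences between stage means, which count the losing members of a class too, the globin clusters lost 13.1 points and the plasma proteins gained 14. Over single genes 22 genes made up 50% of the loss and 43 genes 50% of the gain.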

How the data were processed

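Bulk poly(A) RNA of 15 fetal sheep liver libraries was measured. The authors deposited estimated counts per gene in 1 table with 1 column per library. DRAGEN was used, per the submitters' processing notes. Neither its version nor the build, gene models or strand setting is stated there. The deposited estimated counts were rounded to whole numbers (6.549% of values were fractional), and the 10 libraries compared held 24678965 to 38247295 counts. Groups came from the sample titles. No sequence is printed, since no sequence was used here.

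All 15 libraries were fitted at once with edgeR 4.0.16 (quasi-likelihood test, robust, TMM scaling, filterByExpr, Benjamini-Hochberg adjustment, threshold 0.05), and the contrast was GD144 minus GD100. CPM are TMM-scaled. Pair ratios used CPM plus 0.5, for pairs in which a member reached a mean of 1 CPM. Ratios and composition measures were tested by exact two-sided permutation over 210 assignments, whose smallest p is 0.00476. Overlaps between genes came from the RefSeq gene table. Members and lists were chosen with earlier results of these data known. The genes named were the 12 highest that appeared and that vanished, pair members, family extremes, the 8 largest transporter rises and falls with a mean of at least 10 CPM and no overlap, the 25 largest shares of each stage and transcription factors that crossed 1 CPM, of which a part is printed. ABCG8, DAO, FBP1, HKDC1, SLC3A2, GP6, PRTN3, CRP, ASS1, ASL and the pancreatic markers other than AMY2B were named outside this rule, after their values were seen. DESeq2 1.42.0, other scalings, filters and thresholds, and left-out libraries were tried as alternatives. The test was checked on simulated data of 17001 tested genes, in which 66, 50 and 65 genes changed 1.5-, 2- and 4-fold. It found 1.5%, 22% and 95.4% of them, and 5.1% of its calls were false. A gene that did not pass the test can therefore still have changed. Far fewer genes changed in the simulation than were called here, so these shares need not hold for the real data. The replicate numbers do not pair the libraries. Some results are not reported here.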

Additional observations from a re-analysis of the deposited data

Results flagged for a closer look

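A library was marked where its gap to the nearest of its stage was a large part of the stage's range (Dixon's test, 95%). This held in 47 of 436 groups (10.8%). Chance marks about 1 in 20 only for independent, normally distributed values. Most of these groups were CPM on the linear scale and all shared the same libraries, so no excess over chance can be read from the share.

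GD144 replicate 3 accounted for 24 of the 47. Its levels were the highest of its stage for ALAS2 (124 CPM), CA2 (128), GPX1 (231), HBB (2764), LOC114110673 (4822), LOC101108797 (2360), SLC4A1 (201), SLC25A37 (102), SLC14A1 (5.65), SLC22A4 (3.88), SLC6A9 (6.82), ACSL6 (17.6), MYB (1.83), FOXM1 (2.44), LIN28B (0.318) and GP6 (0.451). The same held for SLC38A5 (3.37 CPM), SLC7A5 (11.3), TAFA3 (0.929), GPD1 (64.9) and the share of counts in globins by symbol (0.279%). Its log2 ratios of CA5A to CA2 (-3.03) and SLC38A3 to SLC38A5 (5.83) were the lowest of the stage, as was VTN (276 CPM).

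GD144 replicate 4 was highest for ARG2 (81 CPM), CPT1A (285), PDK4 (446), SLC16A1 (283), SLC1A5 (19.4) and the log2 ratio of PYGL to PYGB (6.49), and lowest for that of ALDH1L1 to ALDH1L2 (4.15). GD144 replicate 1 was lowest for ALB (46324 CPM) and highest for PFKFB3 (6.64). GD144 replicate 6 was highest for LOC101106199 (352 CPM), SLC1A2 (31.8) and CPT1C (2.8), and GD144 replicate 2 for CPB1 (33.3).

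GD100 replicate 1 was highest for ACACA (56.6 CPM), LDHA (47), ALDH1L2 (4.36), SLC16A3 (8.59) and PRTN3 (5.02). GD100 replicate 4 was highest for PYGL (51.2 CPM) and SLC11A1 (1.29) and lowest for PPP1R3C (22.8). SCD (71.4 CPM) was highest in GD100 replicate 2, and the log2 ratio of ATP2A2 to ATP2A3 (1.33) was lowest in GD100 replicate 3.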

How the results depend on the processing

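The number of genes called stayed within 1.5 times of 9342 under every alternative run, from 7182 with replicate 1 alone for GD100 to 9937 without a filter, and was 9668 with DESeq2. Leaving out 1 library of GD100 or GD144 gave 8546 to 9321. The share of calls that were higher was 49.3%, and 43.5% when libraries were scaled by total counts alone, with which the median of all genes moved to -0.07. With a replicate block 8259 genes were called, 115 of them isoenzyme members and 112 transporter members. Libraries with the same replicate number did not deviate together (correlations of -0.009, -0.114, 0.144 and -0.038).

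The classes cut at 1 CPM moved most. Genes that appeared numbered 49 at 0.5 CPM, 120 at 2 CPM, 17 with the gap to 3 CPM, 296 with GD100 replicate 1 alone and, in an alternative added after the data were seen, 152 without GD100 replicates 2 and 3; leaving out 1 library gave 103 to 123. Genes that vanished numbered 61 with the gap and 810 with GD100 replicate 1 alone, and leaving out 1 library gave 254 to 397. At 0.5 CPM 19 of the 99 and 101 of the 246 genes were kept. Leaving libraries out kept all 99 and 246, since under this rule it can only add genes. With GD100 replicate 1 alone 50 isoenzyme members were higher. Without the globin clusters, an alternative added after the data were seen, 8 composition measures differed, the difference in the share of the 10 most abundant genes turned to 6.73 points and that of the inverse Simpson index to -105. The clusters held top genes of GD100 alone, so the turned measures are a description and no support. With GD100 replicate 1 alone the log2 change of the mitochondrial COX1 gene turned to -1.03 (adjusted p = 0.0203, edgeR). Apart from the rises that the 1 CPM rule builds in, the cause of these changes was not tested.

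Of the calls on genes in the text, AMBP (adjusted p = 0.0732 without GD100 replicate 1), NNAT (0.0889), CEL (0.124) and SLC16A3 (0.274) were lost without that library, BCAT2 without any of 5 libraries in turn (0.0836 without GD144 replicate 6), and those of ACACB, HMGCS1, PKM and SLC38A3 as given above (edgeR); 20 calls were lost with GD100 replicate 1 alone, where a single library is assumed to vary like the other groups. Levels under about 0.1 CPM rest on 3 counts or fewer.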

Other observations

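Markers of Kupffer cells and endothelium were mostly higher at GD144, beside 27.1% of all tested genes that rose and 27.9% that fell. Of 8 tested Kupffer cell and macrophage markers 7 rose and none fell, with sums of 85.81 to 380.6 CPM at GD100 and 389.1 to 706.2 CPM at GD144. Of 9 endothelial markers 7 rose and none fell, with sums of 233.9 to 383.6 CPM and 515.7 to 769.8 CPM. Of 7 bile duct markers 1 rose (14.3%) and none fell, with sums of 19.54 to 58.14 CPM and 29.3 to 55.08 CPM that overlapped. The megakaryocyte markers, all 7 of which fell, had sums of 200.7 to 243.1 CPM and then 10.75 to 32.51 CPM. Of 8 granulocyte markers 6 fell, and the GD144 sums ranged from 0.9906 to 35.78 CPM. Of 8 stem and progenitor markers 2 rose (25%) and 4 fell (50%).

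The urea cycle enzymes ASS1 and ASL were not among the genes that the rule named and were chosen after their values were seen. Their mean share of counts rose in rank from 239 to 46 for ASS1 and from 1107 to 100 for ASL.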
